A study of Mus musculus with 12 samples.

Results

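The 10 genes *Xcr1*, *Clec9a*, *Cadm1*, *Wdfy4*, *Naaa*, *Snx22*, *Cd8a*, *Cd36*, *Ppt1* and *Gcsam* were taken as a list of type 1 conventional dendritic cell (cDC1) identity and cross-presentation genes. The list was chosen with earlier results of these data known. Each gene was matched by its Ensembl identifier to the 53801 genes in the count files. All 10 were found, and all 10 were among the 20580 genes tested, those that reached 5 counts in any sample. RNA-seq measured them in DCs of the mouse small intestine, sorted as CD103+CD11b- or as CD103-CD11b+, with 3 samples in each of 4 groups and 12 samples in all. Control mice were labelled wild type (WT), and whether they carried CD11c-Cre, as the controls of the study's flow cytometry did, was not given for these libraries. The others were labelled Cbfb-cKO, with both alleles of *Cbfb* floxed and a CD11c-Cre transgene, so that Cbfβ, the shared partner of the Runx transcription factors, was to be lost in cells that express CD11c. Both genotypes were of mixed background, the age of the mice used for RNA-seq was not given in the sources used here, and no treatment was given in the labels. According to the study, the samples of a group came from different mice, and CD11c-Cre also recombined *Cbfb* in part of the gut CD4+ T cells.

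cDC1s take up material from dying cells and present peptides from it on MHC class I to CD8+ T cells, which is called cross-presentation. In the gut they are the CD103+CD11b- fraction, whereas CD103-CD11b+ DCs belong to the other conventional lineage, cDC2. XCR1 and CLEC9A are surface receptors that mark cDC1s across tissues, and WDFY4 is needed for cross-presentation of antigen carried by cells.

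The total count on genes ranged from 2161929 to 5863484 per sample. Levels are given as CPM, that is counts scaled to a common library total by edgeR's TMM method, as mean ± SD over the 3 samples of a group. Adjusted p is from edgeR's quasi-likelihood test in 1 model of the 4 groups with Benjamini-Hochberg adjustment over all 20580 genes, and calls required an adjusted p under 0.05 together with a fold change above 1.3. The genes of the sort were as labelled: *Itgae*, which encodes CD103, was at 766 ± 142 CPM in WT and 699 ± 67.2 CPM in Cbfb-cKO CD103+CD11b- DCs against 189.7 ± 79.4 and 50.4 ± 27.2 CPM in CD103-CD11b+ DCs. *Itgam*, which encodes CD11b, was at 4.33 ± 0.59 and 8.13 ± 2.57 CPM against 90.6 ± 13.2 and 164 ± 52.4 CPM. *Itgax*, which encodes CD11c, lay between 536 and 1316 CPM in the 12 samples. *Fcgr1*, which encodes CD64, lay between 0 and 0.49 CPM in CD103+CD11b- and between 4.945 and 11.7 CPM in CD103-CD11b+ samples. Its log2 difference, CD103+CD11b- minus CD103-CD11b+, was -4.56 (adjusted p = 0.00466) in WT and -4.96 (adjusted p = 0.00334) in Cbfb-cKO mice. *Cbfb* over its whole length lay between 161 and 290.2 CPM and was not called between the genotypes in either subset (log2 difference 0.17, adjusted p = 0.876, and 0.14, adjusted p = 0.744), so that its counts do not check the genotype labels.

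On GRCm38 the 10 genes lie on 6 chromosomes, and all are annotated as protein-coding. *Xcr1* (ENSMUSG00000060509) lies on chromosome 9 from 123852315 to 123862029, *Clec9a* (ENSMUSG00000046080) on chromosome 6 from 129408862 to 129424763, and *Cadm1* (ENSMUSG00000032076) on chromosome 9 from 47530173 to 47857637. *Wdfy4* (ENSMUSG00000051506), on chromosome 14 from 32959547 to 33185508, has 63 exon blocks, the most of the list. *Cd8a* (ENSMUSG00000053977) spans 71373427 to 71379173 of chromosome 6 and *Cd36* (ENSMUSG00000002944) 17781690 to 17888801 of chromosome 5. *Naaa* (ENSMUSG00000029413) is on chromosome 5 from 92257659 to 92278170, *Ppt1* (ENSMUSG00000028657) on chromosome 4 from 122836242 to 122859175, *Snx22* (ENSMUSG00000039452) on chromosome 9 from 66065176 to 66069719, and *Gcsam* (ENSMUSG00000022659) on chromosome 16 from 45610380 to 45622867. Reads were counted without regard to strand. This touches *Snx22* most, since 825 of its exon bases (28.5%) are shared with *Ppib* on the other strand, while *Ppt1* shares 129 (3.51%) with *Cap1* on the other strand and *Clec9a* shares 184 (5.59%) with *Clec1b* on the same strand.

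Because the Runx partner was the gene removed, the RefSeq promoter windows of the genes (GRCm38.p6, 250 bases before to 50 after the start site) were searched on both strands for the Runx letters TGTGGT or TGCGGT, for the AP-1 letters TGANTCA, which Batf3 binds with its partners, and for the IRF letters GAAANNGAA, N being any base. Windows were found for 9 of the 10 genes, and *Cadm1* had none. Windows are printed for *Xcr1* and *Clec9a*, the defining receptors, and for *Wdfy4* and *Cd8a*, where the Runx letters occurred, written 5′ to 3′ on the strand of the gene with matches in capitals.
Xcr1, chr9:123861980-123862279, minus strand: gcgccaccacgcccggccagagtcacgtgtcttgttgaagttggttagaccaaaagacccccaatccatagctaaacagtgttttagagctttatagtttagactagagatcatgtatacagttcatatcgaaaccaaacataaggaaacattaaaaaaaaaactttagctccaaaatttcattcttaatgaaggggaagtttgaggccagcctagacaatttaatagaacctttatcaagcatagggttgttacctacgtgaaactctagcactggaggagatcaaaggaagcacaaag
Clec9a, chr6:129408612-129408911, plus strand: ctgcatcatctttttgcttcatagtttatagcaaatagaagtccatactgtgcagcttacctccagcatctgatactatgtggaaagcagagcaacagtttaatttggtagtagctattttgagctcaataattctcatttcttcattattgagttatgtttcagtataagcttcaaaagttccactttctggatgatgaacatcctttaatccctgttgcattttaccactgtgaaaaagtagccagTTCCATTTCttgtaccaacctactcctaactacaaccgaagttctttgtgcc
Wdfy4, chr14:33185017-33185316, minus strand: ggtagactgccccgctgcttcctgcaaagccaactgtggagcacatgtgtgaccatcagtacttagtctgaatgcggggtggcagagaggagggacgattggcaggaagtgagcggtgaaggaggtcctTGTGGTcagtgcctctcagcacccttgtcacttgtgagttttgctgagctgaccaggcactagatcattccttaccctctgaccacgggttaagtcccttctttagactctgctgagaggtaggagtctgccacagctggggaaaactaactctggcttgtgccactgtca
Cd8a, chr6:71373177-71373476, plus strand: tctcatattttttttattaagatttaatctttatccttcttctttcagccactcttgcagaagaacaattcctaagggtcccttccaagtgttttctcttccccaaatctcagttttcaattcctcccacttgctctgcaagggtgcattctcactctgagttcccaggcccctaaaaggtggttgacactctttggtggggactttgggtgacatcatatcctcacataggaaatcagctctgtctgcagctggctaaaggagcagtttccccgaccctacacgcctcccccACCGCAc
The *Wdfy4* window holds TGTGGT, whose first base lies 121 bases before the start site, and that of *Cd8a* holds ACCGCA, the other strand of TGCGGT, at position 44 after it. IRF letters occurred in the window of *Clec9a*, with the first base at position -2, and in that of *Ppt1*, at position -205, and no window held the AP-1 letters. Of all 32817 mouse windows of this length, 22.4% hold the Runx letters, 7.81% the AP-1 letters and 8.55% the IRF letters. The *Xcr1* window holds none of the 3. These matches describe letters only.

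The first comparison asked how far the 10 genes separate the 2 subsets, and whether they do so in both genotypes. In WT mice, 8 of 10 were called higher in CD103+CD11b- DCs and none was called lower, where 7.00% of all genes tested were called higher and 11.8% lower. In Cbfb-cKO mice it was also 8 of 10 and none, against 6.81% and 9.26% of all genes. These shares describe the list and do not test it, since it was chosen with earlier results of these data known. The same holds for the other lists below. The 2 genes not called, *Wdfy4* and *Gcsam*, were not called in either genotype by this fit. With the replicate number within genotype as a block, *Wdfy4* was called in both. The median log2 difference of the 10 genes was 2.55 in WT and 2.73 in Cbfb-cKO mice, beside -0.07 and -0.11 over all genes tested. All 3 CD103+CD11b- samples lay above all 3 CD103-CD11b+ samples for 9 of 10 genes in WT mice, the exception being *Gcsam* (16.7% of all genes), and for 8 of 10 in Cbfb-cKO mice, the exceptions being *Wdfy4* and *Gcsam* (15.6% of all genes). In bulk samples, fewer cells of a type and less RNA per cell cannot be told apart.

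**Figure D1:**
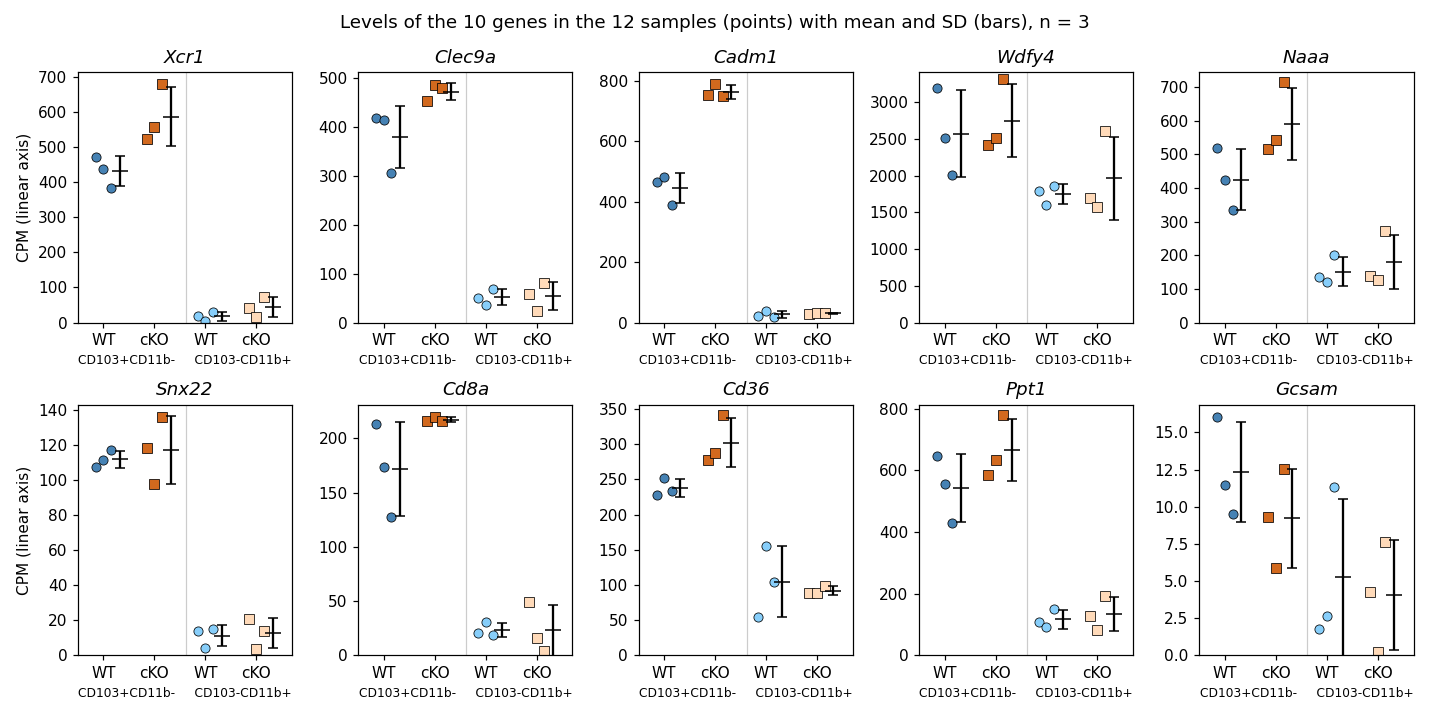
CPM of each of the 10 genes in the 12 samples, on a linear axis from 0 that differs between panels. Points are single samples, and the cross-bar with whiskers is the mean ± SD of the 3 samples of a group. For *Xcr1* the CD103+CD11b- samples lie between 384 and 680.1 CPM and the CD103-CD11b+ samples between 3.998 and 73.9 CPM, whereas for *Gcsam* the groups overlap.

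*Xcr1*, the receptor for the chemokine XCL1, was at 472, 439 and 384 CPM in the 3 WT CD103+CD11b- samples and at 18.2, 3.998 and 30.25 CPM in the 3 WT CD103-CD11b+ samples. In Cbfb-cKO mice it was at 521.5, 557 and 680.1 CPM in CD103+CD11b- and at 42.4, 16.4 and 73.9 CPM in CD103-CD11b+ DCs. The subsets were thus apart by far more than their spread in both genotypes, and the CD103-CD11b+ mean was 4.05% of the CD103+CD11b- mean in WT and 7.55% in Cbfb-cKO mice. The log2 difference was 4.61 (SE 0.62, adjusted p = 0.00102) in WT and 3.76 (SE 0.59, adjusted p = 0.00137) in Cbfb-cKO mice. The WT value was 5.24 without replicate 3 of the CD103-CD11b+ DCs.

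*Clec9a* encodes a C-type lectin that senses actin exposed by dead cells. Its WT levels were 417.5, 413 and 306 CPM in CD103+CD11b- and 51.1, 35.3 and 68.1 CPM in CD103-CD11b+ DCs. The Cbfb-cKO levels were 452, 484.5 and 478 CPM against 58.1, 24.3 and 80.1 CPM. Every CD103+CD11b- sample was above every CD103-CD11b+ sample, by 7.36-fold in WT means (log2 difference 2.88, SE 0.37, adjusted p = 0.000766) and by 8.71-fold in Cbfb-cKO means (3.14, SE 0.37, adjusted p = 0.000237).

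*Cadm1*, a cell adhesion molecule that cDC1s carry on their surface, was at 466, 483 and 389.6 CPM in WT CD103+CD11b- and at 23.1, 38.98 and 18.3 CPM in WT CD103-CD11b+ DCs. In Cbfb-cKO mice the CD103+CD11b- samples were at 751, 791 and 750.5 CPM and the CD103-CD11b+ samples at 29.6, 31.2 and 33.1 CPM. It had the smallest standard error relative to its difference of the 10 genes, with a log2 difference of 4.07 (SE 0.24, adjusted p = 4.37e-06) in WT and 4.61 (SE 0.24, adjusted p = 1.90e-06) in Cbfb-cKO mice. The Cbfb-cKO CD103+CD11b- samples formed the highest group, with no overlap with the WT samples of the same subset.

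*Cd8a* encodes the alpha chain of CD8, which DCs carry without the beta chain. WT CD103+CD11b- samples were at 214, 174 and 128 CPM and WT CD103-CD11b+ samples at 20.4, 30.3 and 18.9 CPM. The Cbfb-cKO samples were at 216, 220.2 and 216 CPM against 49.4, 16.2 and 4.08 CPM, so that the spread was low in one subset and wide in the other. The log2 difference was 2.89 in WT (SE 0.57, adjusted p = 0.0077) and 3.16 in Cbfb-cKO mice (SE 0.57, adjusted p = 0.00344). Without replicate 1 of the Cbfb-cKO CD103-CD11b+ DCs the latter was 4.36. *Cd8b1*, the beta chain, was at 128 ± 63.0 CPM in WT CD103+CD11b- DCs, 30.2 ± 22.1 CPM in Cbfb-cKO CD103+CD11b- DCs and 9.69 ± 2.15 and 9.62 ± 9.74 CPM in the WT and Cbfb-cKO CD103-CD11b+ DCs. *Cd3e*, part of the T cell receptor complex, was at 5.56 ± 7.44, 6.598 ± 7.17, 17.2 ± 19.8 and 16.1 ± 15.3 CPM in the same order of groups. *Cd4*, a T cell coreceptor that some DCs also carry, was at 62.6 ± 32.5, 18.6 ± 13.2, 19.3 ± 16.4 and 48.9 ± 16.5 CPM. Between the subsets the mean of *Cd8b1* was thus higher in CD103+CD11b- DCs in both genotypes, that of *Cd4* in WT mice, and that of *Cd3e* in neither. Of 10 T cell genes, *Cd8b1* alone was called between the subsets in WT mice and none in Cbfb-cKO mice (7.00% of all genes called higher and 11.8% lower in WT, 6.81% and 9.26% in Cbfb-cKO mice), none of the 10 was without counts in any group, and their summed level was 139 to 279 CPM in WT CD103+CD11b-, 29.4 to 160.2 CPM in WT CD103-CD11b+, 52.8 to 89.8 CPM in Cbfb-cKO CD103+CD11b- and 45.4 to 197 CPM in Cbfb-cKO CD103-CD11b+ samples. Their part in the *Cd8a* result was not tested.

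*Cd36* encodes a scavenger receptor that binds lipids and apoptotic cells and is also made by endothelium. It was at 228, 252 and 233.5 CPM in WT CD103+CD11b- and at 54.6, 155 and 104 CPM in WT CD103-CD11b+ DCs. The groups did not overlap, but replicate 2 of the WT CD103-CD11b+ DCs stood above the other two of its group. That library also had the highest summed level of 9 endothelial genes, at 5540 CPM, where the other 11 samples were between 121 and 2648 CPM. The part of endothelial RNA in the *Cd36* level was not tested. The WT log2 difference was 1.19 (SE 0.28, adjusted p = 0.0158), and without that library it was 1.63. Its call was lost, at the same log2 difference of 1.19, in a fit to the 6 WT samples alone (adjusted p = 0.0587) and without replicate 2 of the WT CD103+CD11b- DCs (adjusted p = 0.0507). In Cbfb-cKO mice *Cd36* was at 278, 287 and 342 CPM against 88.5, 88.8 and 98.9 CPM, with a log2 difference of 1.72 (SE 0.28, adjusted p = 0.00185).

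*Ppt1* encodes palmitoyl-protein thioesterase, which removes fatty acids from proteins in lysosomes, and was at 648, 555 and 428 CPM in WT CD103+CD11b- against 107, 91.6 and 151 CPM in WT CD103-CD11b+ DCs. The Cbfb-cKO levels were 585, 634 and 778 CPM against 126, 82.3 and 192 CPM, and in neither genotype did the subsets overlap. The log2 difference was 2.22 (SE 0.30, adjusted p = 0.00103) in WT and 2.33 (SE 0.30, adjusted p = 0.000404) in Cbfb-cKO mice.

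*Naaa* encodes a lysosomal amidase of N-acylethanolamines. It was at 518, 423 and 336 CPM against 135, 119.6 and 200.1 CPM in WT mice and at 517, 542 and 715 CPM against 138, 128 and 271 CPM in Cbfb-cKO mice. CD103-CD11b+ DCs kept 35.6% of the CD103+CD11b- mean in WT and 30.25% in Cbfb-cKO mice, more than for *Ppt1* (21.4% and 20.1%). The log2 difference of *Naaa* was 1.49 (SE 0.30, adjusted p = 0.00924) in WT and 1.73 (SE 0.31, adjusted p = 0.0030) in Cbfb-cKO mice.

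*Snx22*, a sorting nexin that binds phosphoinositides of endosomal membranes, was at 107, 111 and 117 CPM against 13.9, 4.33 and 15.1 CPM in WT and at 118, 97.4 and 136 CPM against 20.6, 3.57 and 13.8 CPM in Cbfb-cKO mice. Its means differed by 10.1-fold in WT (log2 difference 3.31, SE 0.52, adjusted p = 0.00252) and by 9.25-fold in Cbfb-cKO mice (3.21, SE 0.52, adjusted p = 0.00181), where the log2 difference was 3.92 without replicate 1 of the CD103-CD11b+ DCs. Reads on the exon bases shared with *Ppib* cannot be assigned to either gene by strand.

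*Wdfy4*, a BEACH-domain protein of vesicle traffic, was unlike the other genes in that CD103-CD11b+ DCs also had high levels. WT samples were at 3194, 2521 and 2010.0 CPM in CD103+CD11b- and at 1786, 1608 and 1865 CPM in CD103-CD11b+ DCs, with no overlap. Cbfb-cKO samples were at 2414, 2509 and 3320 CPM against 1700.0, 1578 and 2617 CPM, with overlap because replicate 3 of the CD103-CD11b+ DCs was above 2 samples of the other subset. The CD103-CD11b+ mean was 68.1% of the other in WT and 71.5% in Cbfb-cKO mice. The log2 difference was 0.55 (SE 0.22, 95% interval 0.06 to 1.05, adjusted p = 0.107) in WT and 0.48 (SE 0.22, 95% interval -0.01 to 0.98, adjusted p = 0.165) in Cbfb-cKO mice. In Cbfb-cKO mice, where samples of the same replicate number deviated together, a fit with the replicate number within genotype as a block gave 0.51 (SE 0.14, adjusted p = 0.0407), which is past the threshold. Without replicate 3 of the Cbfb-cKO CD103-CD11b+ DCs it was past the threshold in both genotypes (log2 difference 0.55, adjusted p = 0.0469, in WT and 0.75, adjusted p = 0.029, in Cbfb-cKO mice), and without replicate 3 of the WT CD103+CD11b- DCs in WT (0.76, adjusted p = 0.0499).

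*Gcsam*, an adaptor of germinal centre B cells that is also used as a cDC1 gene, had the lowest level of the list. Its raw counts were 47, 50 and 59 in WT CD103+CD11b-, 9, 8 and 39 in WT CD103-CD11b+, 42, 24 and 32 in Cbfb-cKO CD103+CD11b- and 19, 1 and 15 in Cbfb-cKO CD103-CD11b+ samples. As CPM the means were 12.3 ± 3.36, 5.26 ± 5.29, 9.23 ± 3.33 and 4.05 ± 3.71 in that order, and the subsets overlapped in both genotypes. The log2 difference of 1.24 (SE 0.84, 95% interval -0.61 to 3.07, adjusted p = 0.332) in WT and 1.26 (SE 0.87, 95% interval -0.66 to 3.18, adjusted p = 0.350) in Cbfb-cKO mice did not pass the threshold. Single libraries moved it: without WT CD103-CD11b+ replicate 3, which holds the 39 counts, the WT difference was 2.53 (adjusted p = 0.09), and in Cbfb-cKO mice it was 0.65 without CD103-CD11b+ replicate 2 and 1.997 without replicate 3.

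**Figure D2:**
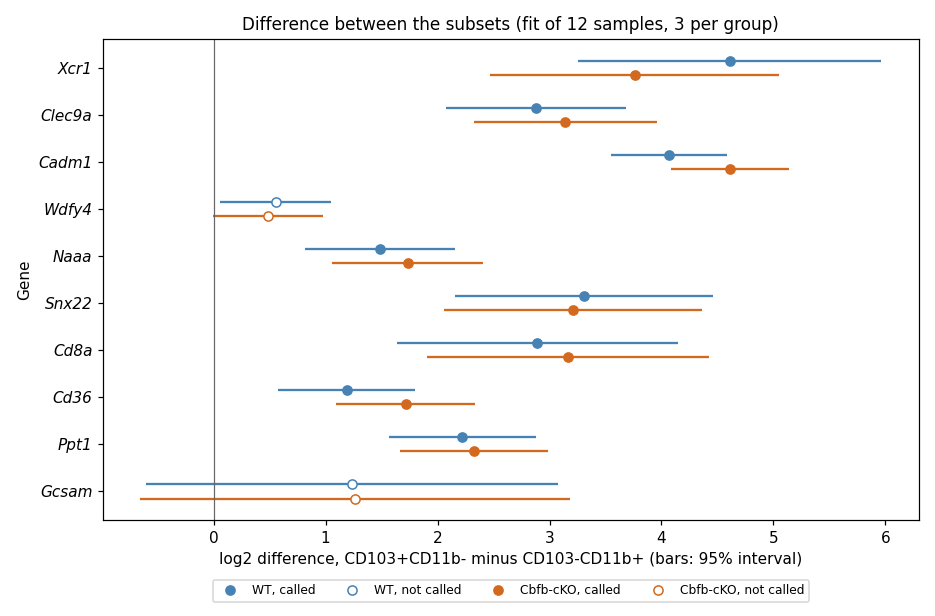
Log2 difference between the subsets for each of the 10 genes, with bars for the 95% interval of the edgeR fit, in WT (blue) and Cbfb-cKO mice (orange); filled points were called. All 20 points lie above 0, from 0.48 for *Wdfy4* to 4.61 for *Xcr1* and *Cadm1*, and only *Wdfy4* and *Gcsam* are open.

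The second comparison asked whether the loss of *Cbfb* changed these genes within a subset. The genotype comparisons use the same samples as the comparison of subsets, so the values of both are not independent. In CD103+CD11b- DCs 0 of 10 genes were called by edgeR's quasi-likelihood test, beside 1.02% of all genes called in either direction, and 1 of 10 had an unadjusted p under 0.05, beside 10.5% of all genes. DESeq2 called 1, *Cadm1*, beside 3.95% of the genes to which it gave an adjusted p. The mean was higher in Cbfb-cKO than in WT samples for 9 of 10 genes, *Gcsam* being the exception, with a median log2 difference of 0.33 beside -0.02 over all genes. In the same comparison the summed levels of 4 lists of marker genes of other cells were lower in Cbfb-cKO samples with no overlap. The 11 cDC2 genes summed to 710.1 to 1092 CPM in WT and 290.3 to 362 CPM in Cbfb-cKO samples, and the 9 plasmacytoid DC genes to 1097 to 2546 and 467 to 951 CPM. The 10 T cell genes summed to 139 to 279 and 52.8 to 89.8 CPM. The 11 macrophage genes summed to 248.9 to 362 and 162 to 248 CPM, so that these ranges nearly touched. No gene of these 2 lists was called (1.02% of all genes), and the list medians were -0.08 and -0.32. Of the 4 T cell genes of highest level, *Cd8b1*, *Cd4* and *Lck* had lower means in Cbfb-cKO samples, and *Cd3e* a higher one. Of the 4 such macrophage genes, *Csf1r* and *Lyz2* had lower means, and *Adgre1* and *C1qb* higher ones. The sums of the B cell, enterocyte, endothelial and stroma lists overlapped, and the part of these cells in the result was not tested. All 3 Cbfb-cKO samples lay above all 3 WT samples for 5 of 10 genes, *Xcr1*, *Clec9a*, *Cadm1*, *Cd8a* and *Cd36* (7.51% of all genes). Leaving out single samples moved the median log2 difference of the 10 genes between 0.18, without replicate 3 of the WT CD103+CD11b- DCs, and 0.41, without replicate 1 of that group. Replicate 3 had the lowest level of its group for 8 of the 10 genes. It also had the highest summed level of 9 endothelial genes (626.5 CPM, against 353 and 242 CPM) and of 8 adipocyte and stroma genes (395 CPM, against 19.2 and 18.3 CPM) of its group, and their part in the result was not tested.

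*Cadm1* had the largest of these differences. From 446 ± 49.9 CPM in WT it was at 764 ± 23.0 CPM in Cbfb-cKO CD103+CD11b- DCs, 1.71-fold, with a log2 difference of 0.78 (SE 0.20, 95% interval 0.33 to 1.225, unadjusted p = 0.00292, adjusted p = 0.124 by edgeR's quasi-likelihood test). It was past the threshold with DESeq2 (0.82, adjusted p = 0.00425), in the fit to the 6 CD103+CD11b- samples (0.78, adjusted p = 0.0323) and without replicate 2 of the WT CD103-CD11b+ DCs (0.79, adjusted p = 0.0214), and over all alternatives its adjusted p lay between 0.00425 and 0.344. For the other 9 genes the lowest adjusted p was 0.692, of *Naaa* (log2 difference 0.47, SE 0.30, 95% interval -0.18 to 1.13). *Xcr1* differed by 0.44 (95% interval -0.70 to 1.58), *Clec9a* by 0.32 (-0.42 to 1.06), *Cd8a* by 0.34 (-0.80 to 1.48), *Cd36* by 0.34 (-0.25 to 0.94), *Ppt1* by 0.29 (-0.33 to 0.92), *Wdfy4* by 0.09 (-0.40 to 0.59), *Snx22* by 0.07 (-0.95 to 1.08) and *Gcsam* by -0.42 (-2.21 to 1.37). These intervals include 0, and the bounds show how large a change in either direction the 3 samples a group leave possible: the widest, of *Gcsam*, spans 0.22-fold to 2.58-fold, and that of *Wdfy4* spans 0.76-fold to 1.501-fold.

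In CD103-CD11b+ DCs again 0 of 10 genes were called, beside 1.61% of all genes, 1 of 10 had an unadjusted p under 0.05, beside 17.4% of all genes, and DESeq2 called 0, beside 7.05% of the genes with an adjusted p. No gene had all Cbfb-cKO samples above all WT samples (9.75% of all genes). The median log2 difference was 0.16, beside -0.06 over all genes. It turned to -0.13 without Cbfb-cKO CD103-CD11b+ replicate 3, where 4 of 10 genes had a positive difference, and was 0.37 without WT CD103-CD11b+ replicate 3. *Xcr1* had the largest, with 44.3 ± 28.8 CPM in Cbfb-cKO against 17.5 ± 13.1 CPM in WT samples (log2 difference 1.29, SE 0.58, 95% interval 0.02 to 2.55, unadjusted p = 0.0468, adjusted p = 0.280 by edgeR's quasi-likelihood test). It was 0.74 without Cbfb-cKO CD103-CD11b+ replicate 3 and 1.89 without WT CD103-CD11b+ replicate 3, and was not called in either case (adjusted p = 0.578 and 0.204). Its ranges overlapped, since Cbfb-cKO replicate 2, at 16.4 CPM, was below 2 of the WT samples. *Clec9a* was at 54.2 ± 28.1 against 51.5 ± 16.4 CPM, a log2 difference of 0.05 (-0.73 to 0.83), and *Cadm1* at 31.3 ± 1.76 against 26.8 ± 10.8 CPM, a log2 difference of 0.23 (-0.26 to 0.72). The other 7 genes had log2 differences between -0.45 (*Gcsam*) and 0.23 (*Naaa*).

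**Figure D3:**
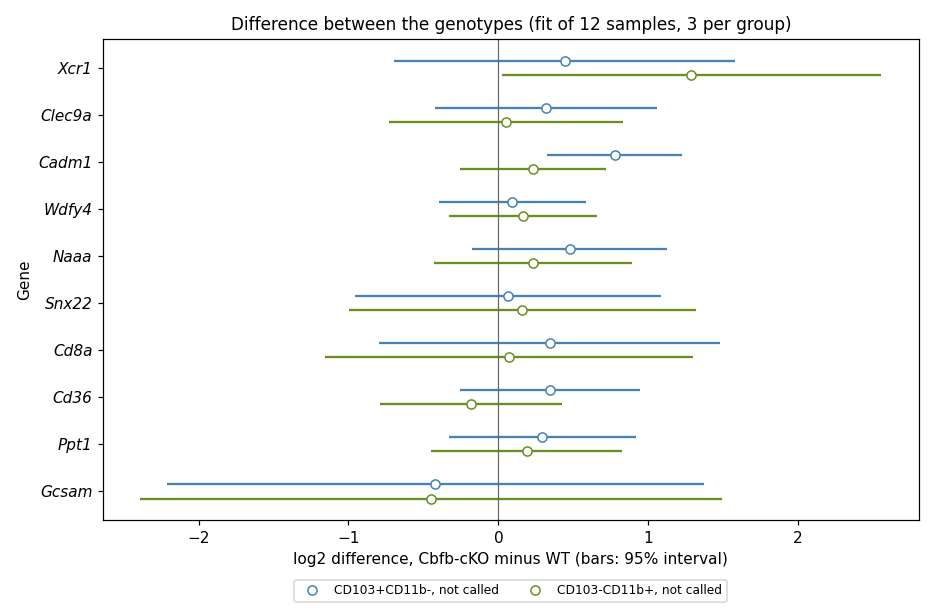
Log2 difference between the genotypes, Cbfb-cKO minus WT, for each of the 10 genes in CD103+CD11b- (blue) and CD103-CD11b+ DCs (green), with bars for the 95% interval of the edgeR fit. All points are open, since none was called. The intervals of *Cadm1* in CD103+CD11b- DCs, from 0.33, and of *Xcr1* in CD103-CD11b+ DCs, from 0.02, are the ones that exclude 0.

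The genotype differences of the 2 subsets were compared by an interaction term, counted as that in CD103+CD11b- minus that in CD103-CD11b+ DCs. It was called for 0 of 10 genes, beside 0.651% of all genes, 0 of 10 had an unadjusted p under 0.05, beside 11.1% of all genes, and DESeq2 called 0, beside 3.22% of the genes with an adjusted p. *Cadm1* was closest, at 0.55 (SE 0.30, 95% interval -0.12 to 1.21, adjusted p = 0.577), and *Xcr1* had the largest value, at -0.85 (SE 0.77, 95% interval -2.54 to 0.85, adjusted p = 0.797), which lay between -1.43 without WT CD103-CD11b+ replicate 3 and -0.29 without Cbfb-cKO CD103-CD11b+ replicate 3.

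Levels can be set against each other between genes only per length, here as CPM per kilobase of merged exons. On that scale, WT CD103+CD11b- DCs had most of *Wdfy4* (244 ± 56.3), followed by *Ppt1* (148 ± 30.0), *Clec9a* (115 ± 19.2), *Naaa* (114 ± 24.5), *Xcr1* (96.9 ± 9.89), *Cd36* (66.2 ± 3.55), *Cd8a* (47.2 ± 11.9), *Cadm1* (42.8 ± 4.78), *Snx22* (38.7 ± 1.66) and *Gcsam* (3.61 ± 0.98). Neighbours such as *Clec9a* and *Naaa*, or *Cd8a* and *Cadm1*, differed by less than their SDs. The length matters most for *Cadm1*, whose level was 93.7 ± 10.5 by its longest transcript, and by that length *Naaa* was at 176 ± 37.7 and *Ppt1* at 211 ± 42.8. In CD103-CD11b+ DCs of WT mice *Wdfy4* again led, at 166 ± 12.5, followed by *Naaa* (40.7 ± 11.5) and *Ppt1* (31.7 ± 8.45). Lowest there were *Xcr1* (3.93 ± 2.95), *Snx22* (3.85 ± 2.04), *Cadm1* (2.57 ± 1.04) and *Gcsam* (1.53 ± 1.54).

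Across the 4 groups the order of the means was the same for 8 of the 10 genes, with Cbfb-cKO CD103+CD11b- highest, then WT CD103+CD11b-, Cbfb-cKO CD103-CD11b+ and WT CD103-CD11b+. *Cd36* had the last pair in the other order, and *Gcsam* had both pairs in the other order. The lower pair overlapped for every gene, and the upper pair for *Wdfy4*, *Naaa*, *Snx22*, *Ppt1* and *Gcsam*. Within each subset the genes tended to be high or low in the same libraries. In CD103+CD11b- DCs, Cbfb-cKO replicate 3 had the highest level of its group for 7 genes and replicate 1 the lowest for 7. In WT mice replicate 1 of that subset was the highest for 7 and replicate 3 the lowest for 8. In CD103-CD11b+ DCs, WT replicate 3 was the highest for 7 and replicate 2 the lowest for 6. Of the Cbfb-cKO CD103-CD11b+ samples, replicate 3 was the highest for 8 and replicate 2 the lowest for 7. Cbfb-cKO CD103-CD11b+ replicate 3 had a summed level of the 9 endothelial genes of 461 CPM, against 1744 and 2260.0 CPM in its group, and of the 11 cDC2 genes of 2715 CPM, against 1761 and 1900.0 CPM. The part of these in the levels was not tested.

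Transcription factors of the cDC1 lineage were measured beside the 10 genes. Of 6, 4 were called higher in CD103+CD11b- DCs in each genotype and none lower (7.00% of all genes called higher in WT and 6.81% in Cbfb-cKO mice), with a median log2 difference of 0.78 in WT and 0.82 in Cbfb-cKO mice. *Irf8*, which specifies cDC1s, was at 893.5 ± 217 CPM in WT CD103+CD11b- and 195 ± 75.0 CPM in WT CD103-CD11b+ DCs (log2 difference 2.20, SE 0.35, adjusted p = 0.00246), and *Mycl*, a Myc family factor of DCs, was at 313 ± 38.4 against 71.8 ± 26.6 CPM (2.12, SE 0.28, adjusted p = 0.000933). *Id2*, which restrains E proteins, was not called in WT (0.66, adjusted p = 0.0517) or in Cbfb-cKO mice (0.23, adjusted p = 0.494). None of the 6 was called between the genotypes, where 1.02% of all genes were called in CD103+CD11b- and 1.61% in CD103-CD11b+ DCs, so that a count of 0 among 6 genes is near the background.

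Of 17 other genes known from cDC1s, 11 were called higher in CD103+CD11b- DCs in WT and 15 in Cbfb-cKO mice, and none lower (7.00% and 6.81% of all genes called higher). These counts include *Itgae*, whose protein the subsets were sorted on, so that its call follows from the gate, and without it they were 10 and 14 of 16. *Tlr3*, a sensor of double-stranded RNA, was at 461 ± 44.0 against 54.8 ± 21.3 CPM in WT mice (log2 difference 3.07, SE 0.33, adjusted p = 0.000292). In CD103+CD11b- DCs none of the 17 was called between genotypes (1.02% of all genes). In CD103-CD11b+ DCs 3 were (1.61% of all genes): *Tlr11*, a sensor of microbial profilin, rose from 38.1 ± 16.0 to 113 ± 16.5 CPM in Cbfb-cKO mice (1.56, SE 0.24, adjusted p = 0.011), *Itgae* fell by 1.89 on the log2 scale (SE 0.36, adjusted p = 0.0301), and *Pdia5*, a protein disulfide isomerase, fell by 1.42 (SE 0.28, adjusted p = 0.0375). Without *Itgae*, 1 of the 16 was called higher there and 1 lower. *Pdia5* was also the one of the 17 called for the difference of the genotype effects (2.12, SE 0.39, adjusted p = 0.0422), beside 0.651% of all genes.

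The cross-presentation machinery was followed by 29 genes of peptide loading, immunoproteasome, vesicle traffic and phagosome oxidation. In WT mice 5 were called higher in CD103+CD11b- DCs and 1 lower (7.00% and 11.8% of all genes), with a median log2 difference of 0.25. In Cbfb-cKO mice it was 4 and 3 (6.81% and 9.26% of all genes), with a median of 0.12. *Tap1*, a subunit of the peptide transporter, was at 536 ± 102 against 334 ± 32.5 CPM in WT mice (log2 difference 0.68, SE 0.17, adjusted p = 0.0201). Between genotypes, 1 of the 29 was called in each subset, where 1.02% and 1.61% of all genes were called. *Cybb*, the catalytic subunit of the phagocyte NADPH oxidase, fell from 342 ± 121 to 89.1 ± 33.8 CPM in Cbfb-cKO CD103+CD11b- DCs (log2 difference -1.93, SE 0.33, adjusted p = 0.024). In CD103-CD11b+ DCs it was at 456 ± 40.8 CPM in WT and 544 ± 138.5 CPM in Cbfb-cKO mice. Of 11 cDC2 genes 5 were also called lower in Cbfb-cKO CD103+CD11b- DCs (1.02% of all genes), and the part of cDC2s in the *Cybb* level was not tested. *Rab14*, a GTPase of endosomes, rose from 228 ± 18.1 to 316 ± 10.6 CPM in CD103-CD11b+ DCs (0.48, SE 0.09, adjusted p = 0.0311).

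Of 22 relatives and partners of the 10 genes, 7 were called higher and 3 lower in CD103+CD11b- DCs of WT mice (7.00% and 11.8% of all genes), and 7 and 2 in Cbfb-cKO mice (6.81% and 9.26%). Between genotypes 1 of the 22 was called in CD103+CD11b- and 2 in CD103-CD11b+ DCs (1.02% and 1.61% of all genes). *Clec1a*, a lectin of the same cluster as *Clec9a*, was at 285 ± 51.3 against 70.4 ± 21.7 CPM in WT (log2 difference 2.02, SE 0.23, adjusted p = 0.000453). *Clec12a*, an inhibitory lectin that senses dead cells by uric acid crystals, was called between the genotypes in both subsets, from 112 ± 3.45 to 203 ± 21.8 CPM in CD103+CD11b- DCs (0.86, SE 0.16, adjusted p = 0.0398) and from 29.4 ± 5.56 to 143 ± 28.6 CPM in CD103-CD11b+ DCs (2.28, SE 0.18, adjusted p = 0.000488), and the difference of these effects was called as well (-1.42, SE 0.24, adjusted p = 0.0295). *Wdfy3*, a relative of *Wdfy4* in selective autophagy, fell from 507 ± 78.6 to 333.5 ± 40.1 CPM in CD103-CD11b+ DCs (-0.61, SE 0.13, adjusted p = 0.04997), just inside the threshold. *Asah1*, the acid ceramidase related to *Naaa*, was higher in CD103+CD11b- DCs in WT (0.66, SE 0.12, adjusted p = 0.006) and in Cbfb-cKO mice (0.55, SE 0.12, adjusted p = 0.0114).

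Markers of other cells moved with the groups. Of the 11 cDC2 genes 5 were called lower in Cbfb-cKO than in WT CD103+CD11b- samples (1.02% of all genes called in either direction), *Irf4*, *Zeb2*, *Cd209a*, *Sirpa* and *Clec4a4*. *Sirpa*, an inhibitory receptor of cDC2s and macrophages, was at 212 ± 73.0 CPM in WT and 30.9 ± 22.6 CPM in Cbfb-cKO CD103+CD11b- DCs (log2 difference -2.74, SE 0.53, adjusted p = 0.042). None of the 9 plasmacytoid DC genes was called between genotypes in CD103+CD11b- DCs (1.02% of all genes). *Siglech*, their defining receptor, was at 327 ± 155 against 92.8 ± 67.7 CPM. The 11 macrophage genes summed to 689 to 1039 CPM in WT and 773 to 1014 CPM in Cbfb-cKO CD103-CD11b+ samples. Between the subsets 8 of them were called lower in CD103+CD11b- DCs in WT and 7 in Cbfb-cKO mice (11.8% and 9.26% of all genes). The 9 endothelial genes summed to 242 to 626.5 and 121 to 342 CPM in WT and Cbfb-cKO CD103+CD11b- samples and to 1965 to 5540 and 461 to 2260.0 CPM in CD103-CD11b+ samples. The 9 B cell genes summed to at most 67.7 CPM in the CD103+CD11b- and 107 to 572 CPM in the CD103-CD11b+ samples, the 11 enterocyte genes to at most 148 CPM, and the 8 adipocyte and stroma genes to 18.3 to 395 CPM in CD103+CD11b- and 52.5 to 1303 CPM in CD103-CD11b+ samples. Of the 65 tested genes of these 7 lists, 4 were called higher in Cbfb-cKO than in WT CD103-CD11b+ DCs and none lower (1.61% of all genes called in either direction). They were *Adgre1*, which encodes the macrophage antigen F4/80 (51.9 ± 23.2 to 197 ± 50.7 CPM, adjusted p = 0.0336), the B cell gene *Ms4a1* (5.49 ± 3.0 to 73.0 ± 25.9 CPM, adjusted p = 0.00455), the enterocyte cadherin *Cdh17* (4.64 ± 1.99 to 80.7 ± 30.1 CPM, adjusted p = 0.00305) and *Clec4a4* (11.6 ± 3.37 to 38.1 ± 3.76 CPM, adjusted p = 0.0398). In CD103+CD11b- DCs *Epcam*, an epithelial adhesion gene, fell from 42.9 ± 6.91 to 11.5 ± 6.36 CPM (adjusted p = 0.0432). Genes of the same lists that were not called in the subset had values in either direction. In CD103-CD11b+ DCs the log2 difference (Cbfb-cKO minus WT) was -0.36 for *Csf1r* among macrophage genes and -1.27 for *Ebf1* among B cell genes. Among enterocyte genes it was -1.75 for *Vil1*, -1.21 for *Epcam* and -1.12 for *Lgals4*. The medians of the macrophage, B cell and enterocyte lists there were -0.10, 1.52 and 0.06. In CD103+CD11b- DCs, where *Epcam* was lower, *Vil1* was at 2.49 and the median of the enterocyte list at 2.27. The part of these cells in the levels of the 10 genes was not tested.

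**Figure D4:**
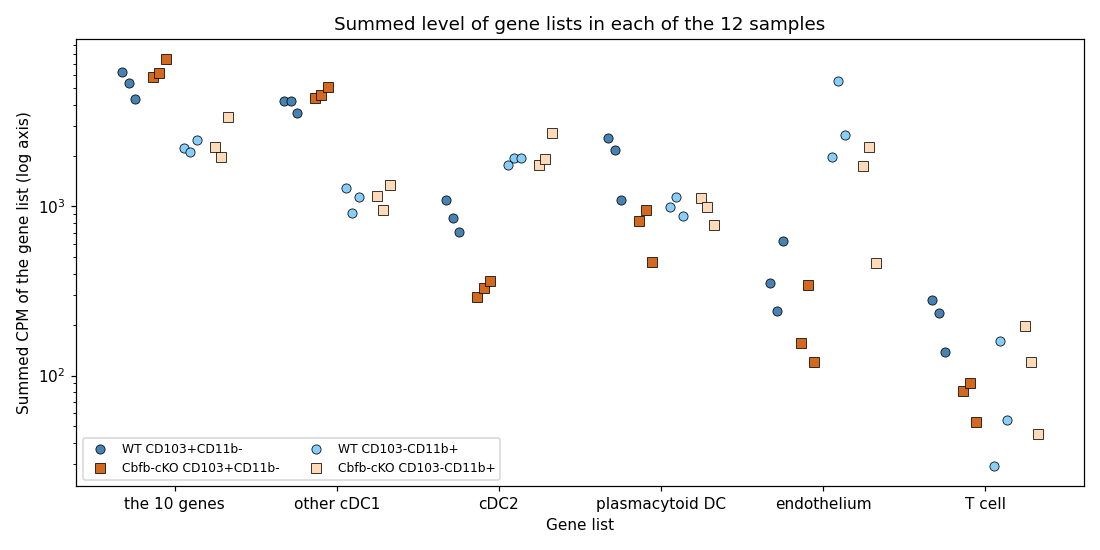
Summed CPM of 6 gene lists in each of the 12 samples, on a log axis. The 10 genes sum to 4342 to 7428 CPM in CD103+CD11b- and 1968 to 3391 CPM in CD103-CD11b+ samples. The cDC2 and plasmacytoid DC lists are lower in all Cbfb-cKO than in all WT CD103+CD11b- samples, and the endothelial list runs from 461 to 5540 CPM in CD103-CD11b+ samples.

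The genes most alike in pattern were sought by the Pearson correlation of log2 CPM over the 12 samples, among 10557 genes outside the lists with a mean of 10 CPM or more. These samples share 2 subsets that differ strongly, so the values describe the pattern only. *Slc8b1*, a mitochondrial sodium/calcium exchanger, was among the 3 closest for *Ppt1* (r = 0.995), *Clec9a* (0.991) and *Naaa* (0.981), and *Ap1s3*, a subunit of the AP-1 clathrin adaptor, for *Ppt1* (0.987) and *Naaa* (0.985). For *Xcr1* the closest was *Coro7* (0.988) and for *Snx22* *Gm43914* (0.985). The closest of all to *Clec9a* was the same *Gm43914* (0.993), an annotated transcript over the *Clec9a* gene on the same strand with no shared exon bases, and to *Cadm1* it was *Gm47198* (0.993), which lies in the *Cadm1* gene in the same way, so these 2 pairs share a locus. *Wdfy4* was closest to *Brk1* (0.985), followed by *H2-DMb1* (0.976), which helps to load MHC class II. *Cd8a* was closest to *Rnf14* (0.972), *Cd36* to *Ncoa7* (0.972), and *Gcsam*, with its few counts, reached only 0.912, with *Lgals1*.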

How the data were processed

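RNA-seq libraries of 12 samples, 3 for each genotype and subset in the labels, were used. Cells gated as CD45+CD64-CD11c+MHC-II+ were sorted, and libraries were prepared by a RamDA-seq method adapted to bulk RNA. The authors trimmed the reads (Trim Galore), mapped them with STAR 2.7 to mm10, removed duplicates and reads of low mapping quality, and counted reads on Ensembl genes with HTSeq without strand. The authors deposited raw counts per gene, 1 file per sample. The 5 summary lines of the counter, 61.2 to 67.3% of reads, were left out. The number of sorted cells, duplicate removal and PCR limit precision beyond counting error.

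The 10 genes and all other lists were chosen with earlier results of these data known. Positions were taken from GENCODE M21 (53706 of 53801 identifiers matched), and CPM from edgeR 4.0.16 with TMM. Tests were the quasi-likelihood F-test of edgeR (R 4.3.3, limma 3.58.1) with Benjamini-Hochberg adjustment. Genes named outside the 10 were the 4 of highest mean level in a list or those called between genotypes, and the 3 closest in pattern. *Itgae*, *Itgam*, *Itgax*, *Fcgr1* and *Cbfb* were added to check labels.

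The labels number replicates 1 to 3 in every group. Samples of the same number deviated together between the subsets of Cbfb-cKO mice (r over genes of 0.112 to 0.354 for 3 of 3 pairs, each best with its own number), so a replicate block was used there beside the other fit. Alternatives were other filters, RLE, DESeq2 1.42.0, replicate blocks, 6-sample fits, a stricter threshold and leaving out each sample. Figures were drawn with matplotlib 3.10.9.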

Additional observations from a re-analysis of the deposited data

How the results depend on the processing

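The 8 genes called between the subsets kept their direction in every alternative run, and *Cd36* in WT mice was the only one of them to lose its call. The number of the 10 genes called stayed at 8 with every filter, RLE and DESeq2. It was 7 in WT mice in the 6-sample fit and at an adjusted p under 0.01, and 9 in each genotype with the replicate block within genotype, where *Wdfy4* was added (WT log2 difference 0.53, adjusted p = 0.0309). That block also raised the count of all genes called, from 3860 to 5196 in WT and from 3307 to 4427 in Cbfb-cKO mice. Between genotypes in CD103+CD11b- DCs, DESeq2 and the 6-sample fit each called 1 of the 10 (*Cadm1*), beside 652 and 215 of all genes. Leaving out 1 sample gave 0 to 1 there, beside 46 to 241 of all genes. For the subsets it gave 7, without WT CD103+CD11b- replicate 2, to 9 in WT and 8 to 9 in Cbfb-cKO mice. *Gcsam* was not among the genes tested with 5 counts in every sample.

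With the replicate number as a block over all 12 samples, *Cd8a* turned to -0.11 in CD103-CD11b+ DCs and the *Gcsam* difference of effects to -0.16, and no call on the 10 genes changed. Same-numbered samples correlated across genes at -0.08 to 0.36 between the WT subsets (2 of 3 best with their own number, at 0.357 and 0.352). Between genotypes they correlated at -0.09 to 0.13 in CD103+CD11b- and at 0.02 to 0.42 in CD103-CD11b+ DCs. What the numbers mark was not given, and correlations of 3 pairs cannot settle whether the samples were paired. The count of all genes called between genotypes in CD103+CD11b- DCs was 210, and became 652 with DESeq2, 320 without a filter, 522 with the replicate block and 41 at an adjusted p under 0.01. In CD103-CD11b+ DCs it was 331, and became 573 with 5 counts in every sample, 1136, 849 and 71 with DESeq2, the replicate block and the stricter threshold, and 29 in the 6-sample fit. For the difference of effects it was 134, and became 506, 205, 330 and 19 with DESeq2, no filter, the replicate block and the stricter threshold, and 328 with the block within genotype. For the subsets it was 3860 in WT and 3307 in Cbfb-cKO mice, and became 1115 and 1636 at the stricter threshold and 2510 in the WT 6-sample fit. The cause was not tested.

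Leaving out 1 sample gave 1410 to 4373 genes (WT subsets), 2124 to 3638 (Cbfb-cKO subsets), 46 to 241 and 121 to 517 (genotypes in CD103+CD11b- and CD103-CD11b+ DCs) and 29 to 210 (difference of effects). The lowest of these came without WT CD103+CD11b- replicate 2, Cbfb-cKO CD103+CD11b- replicate 1, WT CD103+CD11b- replicate 1, Cbfb-cKO CD103-CD11b+ replicate 2 and Cbfb-cKO CD103+CD11b- replicate 1 in that order, and fewer samples enter these fits. Signs turned among small differences. In CD103+CD11b- DCs these were *Snx22* (-0.053 to 0.18) and *Wdfy4* (-0.065 to 0.28). In CD103-CD11b+ DCs they were *Cd36* (-0.47 to 0.23), *Gcsam* (-1.18 to 0.82), *Ppt1* (-0.16 to 0.45), *Naaa* (-0.19 to 0.50), *Snx22* (-0.49 to 0.63), *Clec9a* (-0.32 to 0.41), *Wdfy4* (-0.10 to 0.30) and *Cd8a* (-1.06 to 0.51). For the difference of effects they were *Gcsam* (-1.23 to 0.76), *Ppt1* (-0.15 to 0.45), *Naaa* (-0.011 to 0.67), *Snx22* (-0.57 to 0.57), *Clec9a* (-0.10 to 0.64), *Wdfy4* (-0.24 to 0.19) and *Cd8a* (-0.17 to 1.42). *Gcsam* had the fewest counts of the 10 genes, 1 to 59 a sample.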
